A study of Danio rerio with 48 samples.

Results

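Retinas of adult albino zebrafish after 10 days of constant light (10 dpl) were compared with retinas taken before any light treatment (0 h), in 6 single-retina libraries per group and 12 of the 48 libraries of a time-course of chronic low light (CLL). The 10 dpl fish were kept for 24 h in the dark and then under halogen lamps of about 5000 lux without a dark phase. The 0 h fish were taken at the end of the same 24 h in the dark. All fish were albinos of 6 to 9 months, which lack melanin in the pigment epithelium, and had been raised at 250 lux with 14 h of light and 10 h of dark. Each library came from the dissected left retina of 1 fish and was made with QuantSeq, which reads the 3′ end of polyadenylated mRNA. Light treatment moved together with other conditions: the 10 dpl fish were sampled in the light and received another feed on another schedule, and the 0 h fish were sampled out of the dark. Days of light, light at sampling and feed therefore cannot be told apart in this comparison.

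Photoreceptors (PRs) turn light into an electrical signal through a cascade of opsin, transducin, phosphodiesterase and a cyclic GMP-gated channel, held in the stacked membranes of the outer segment. Rods serve dim light and cones serve daylight and colour, and light beyond what a PR can handle damages the outer segment and can kill the cell. The pigment epithelium behind the PRs recycles the retinoid chromophore and takes up shed outer segments, microglia clear dying cells, and in zebrafish the Müller glia (MG) can re-enter the cell cycle and replace lost neurons.

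The deposited values are edgeR pseudocounts, which are counts brought to a common library size by the authors, and every value below is in these units unless a log2 value is named. Fold changes are 10 dpl over 0 h on the scale of log2(value + 1), from limma with terms for library set and time-point. The added constant of 1 understates the changes of weakly expressed genes. A gene is said to have risen or fallen where its p, adjusted over all tested genes by Benjamini-Hochberg, was under 0.05. Library set means the 2 sets of 3 libraries per time-point that the column names mark. Ranges are the lowest and highest of 6 retinas.

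Of 11395 tested genes, 730 rose (6.41%) and 172 fell (1.51%) at 10 dpl. Counts of list members given below are to be read against these shares. With a fold of at least 2 as well, 434 rose (3.81%) and 87 fell (0.763%), and 520 of these 521 genes moved the same way in both library sets. They were called over both sets together, so this match of signs is no independent support. Of the 521 genes, 282 were also called within set 1 alone and 201 within set 2 alone. The values of the 2 groups did not overlap for 443 tested genes that were higher at 10 dpl (3.89%) and 123 that were lower (1.08%). The median log2 fold change of all tested genes was 0.16, and 0.02 after median-of-ratios rescaling, under which 304 genes rose and 115 fell by at least 2-fold, so that rises were 72.6% of the calls in place of 83.3%. Sums of the values per library lay between 1631676 and 1636771 in all 48 libraries, so the depth of single libraries is unknown. Between 1716 and 1880 genes were listed at exactly 0 in each 10 dpl library of set 1 while another 10 dpl library had a value above 0, and no gene was in the 10 dpl libraries of set 2. At 0 h this number was up to 2188 in set 1 and 0 in set 2. Within set 2 alone 205 genes rose and 50 fell by at least 2-fold. The calls of aanat1, cxcr4b, cyp51, dct, fabp7a, gc3, hmgcs1, hmox1a, hsp70l, pmela, psmb9a, rom1a, rx2, rx3, stat1a and stat2 given below were lost when 1 or another retina was left out. For 2 of the 0 h libraries the replicate number is uncertain, and these are named library A, 1 in each set. Their set follows the ending of the column name.

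The tissue carried the markers of every retinal cell class that was checked. Of 6 rod markers 4 fell, and of 7 cone markers 2 fell and 1 rose, while no marker of amacrine, horizontal or ganglion cells or of MG passed the test. The summed level of 6 rod markers was 12380 to 51436 (median 24831) at 10 dpl, against 65939 to 78887 (median 74668) at 0 h. The sums of 7 cone markers overlapped, at 34924 to 49769 at 10 dpl and 44586 to 56204 at 0 h. In whole retinas, fewer cells of a type and less RNA per cell cannot be told apart.

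**Figure D1:**
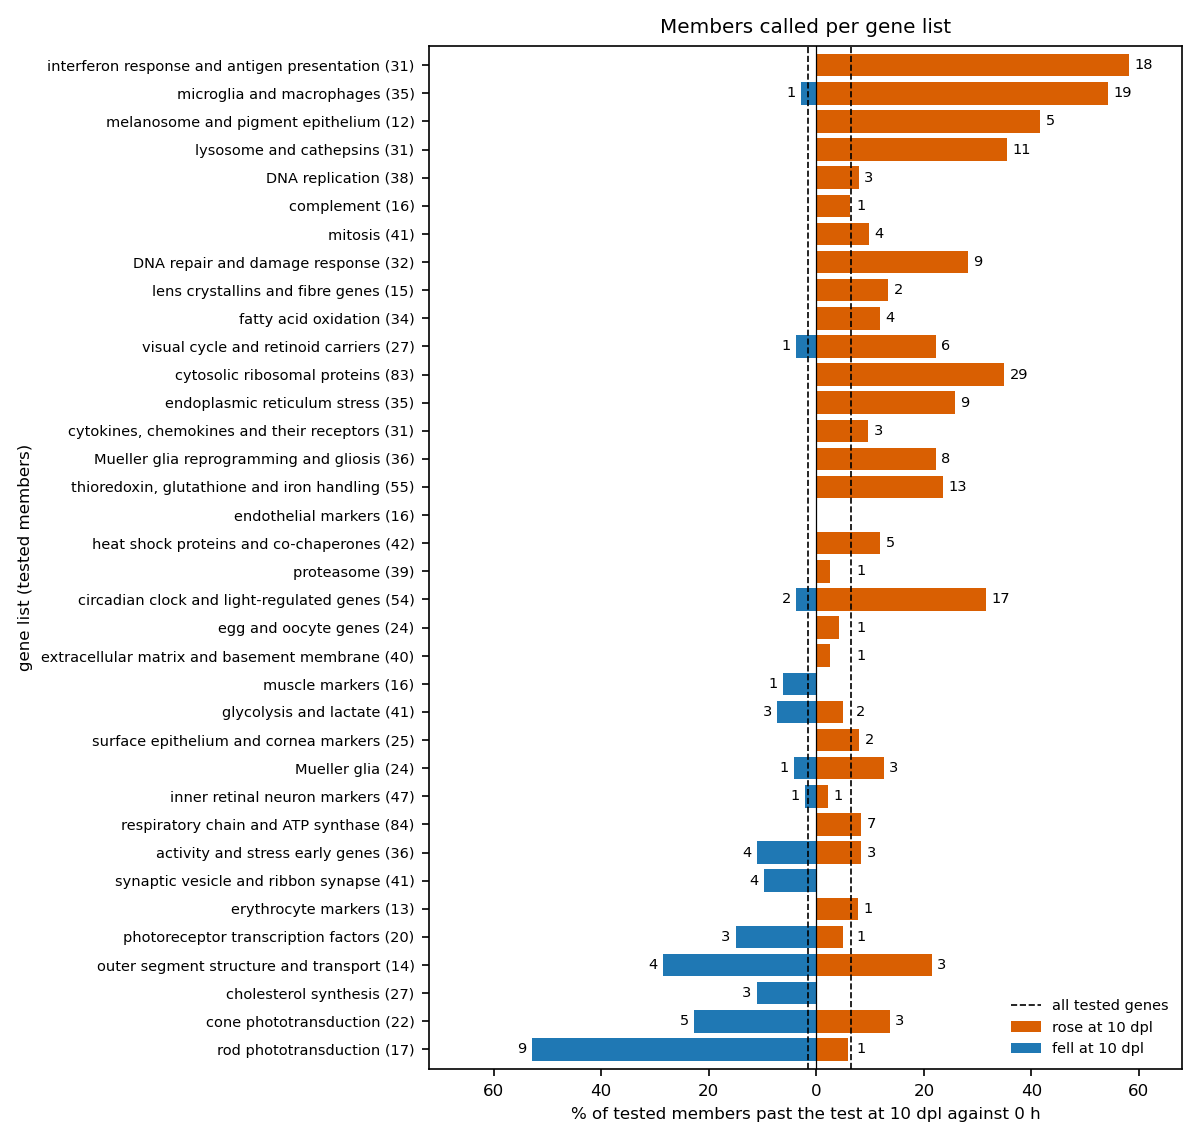
Share of the tested members of each gene list with at least 12 tested members (horizontal axis, percent, number tested in parentheses) that rose (right, orange) or fell (left, blue) at 10 dpl against 0 h, with the number of genes beside each bar and the lists ordered from the highest to the lowest median log2 fold change. Dashed lines mark the shares of all tested genes, 6.41% rising and 1.51% falling. Among the lists shown, interferon response and antigen presentation had the largest share of rising members (18 of 31) and rod phototransduction the largest share of falling members (9 of 17).

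Most of the rod phototransduction cascade was lower at 10 dpl. Of 17 tested members 9 fell and 1 rose, against 1.51% and 6.41% of all genes, and the median log2 fold change was -1.04. The 9 were the opsin, the 3 transducin subunits with both beta copies, 2 phosphodiesterase subunits, recoverin and a guanylate cyclase. The rod opsin rho had 9949 to 40054 (median 19363) at 10 dpl, against 52016 to 64130.4 (median 59713) at 0 h (log2 fold change -1.52, standard error 0.28, adjusted p = 0.000123). Every 10 dpl retina lay below every 0 h retina, and the lowest, replicate 1, was far from the highest, replicate 5. The transducin alpha subunit gnat1 had 630.0 to 3677 (median 1833) at 10 dpl, against 4355 to 5604 (median 4898) at 0 h (log2 fold change -1.56, standard error 0.27, adjusted p = 4.49e-05), with the same retinas at the ends. The catalytic phosphodiesterase subunit pde6a, which breaks down cyclic GMP, had 66.2 to 412 (median 169) at 10 dpl, against 442 to 1012 (median 581) at 0 h (log2 fold change -1.89, standard error 0.34, adjusted p = 0.0001). Its groups did not overlap either, although replicate 5, at 412, came near the lowest 0 h retina, at 442. The transducin gamma subunit gngt1 had 1282 to 6326 (median 2860.4) at 10 dpl, against 7471 to 9135 (median 8419.8) at 0 h (log2 fold change -1.54, standard error 0.31, adjusted p = 0.000567), again with no overlap.

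Recoverin and the cyclase gucy2f, which set the calcium feedback and the resupply of cyclic GMP, fell as well. The recoverin gene rcvrna had 153 to 316 (median 157) at 10 dpl, against 622 to 809 (median 674) at 0 h (log2 fold change -1.82, standard error 0.37, adjusted p = 0.00061). Values of gucy2f, a retinal guanylate cyclase, were 5.99 to 86.8 (median 30.4) at 10 dpl, against 81.4 to 132 (median 106) at 0 h (log2 fold change -1.78, standard error 0.38, adjusted p = 0.000952). The rcvrna groups did not overlap, whereas for gucy2f replicate 5 reached into the 0 h range. The other members that fell were the transducin beta copies gnb1a and gnb1b, with log2 fold changes of -1.13 and -1.04, and zgc:112320, listed as the phosphodiesterase subunit pde6ga in RefSeq. Outside the list pde6g, an inhibitory phosphodiesterase subunit, fell as well (log2 fold change -1.002, standard error 0.22, adjusted p = 0.00119).

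The exception was guca1a, which encodes a calcium-sensing activator of guanylate cyclase in PRs. It had 83.1 to 230.4 (median 119) at 10 dpl, against 6.02 to 15.7 (median 9.83) at 0 h (log2 fold change 3.64, standard error 0.48, adjusted p = 1.98e-07), so that all 10 dpl retinas were above all 0 h retinas while the cyclase gene gucy2f was lower. Another guanylate cyclase gene of the list, gc2, had a negative log2 fold change but did not pass the test. The rod arrestin gene saga, whose product shuts off active rhodopsin, did not pass the test, with 404 to 1110.3 (median 599) at 10 dpl, against 316 to 961 (median 401) at 0 h (log2 fold change 0.51, standard error 0.27, adjusted p = 0.306).

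Rod genes differed more between the 10 dpl retinas than between the 0 h retinas. The highest 10 dpl retina exceeded the lowest by 4.03-fold for rho, 5.84-fold for gnat1, 6.23-fold for pde6a and 14.5-fold for gucy2f. The same ratios at 0 h were 1.23, 1.29, 2.29 and 1.62. Of the 9 rod genes that fell, replicate 1 was the lowest 10 dpl retina in 7 and replicate 5 the highest in 8. These ratios and ranks are descriptions, with no test.

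**Figure D2:**
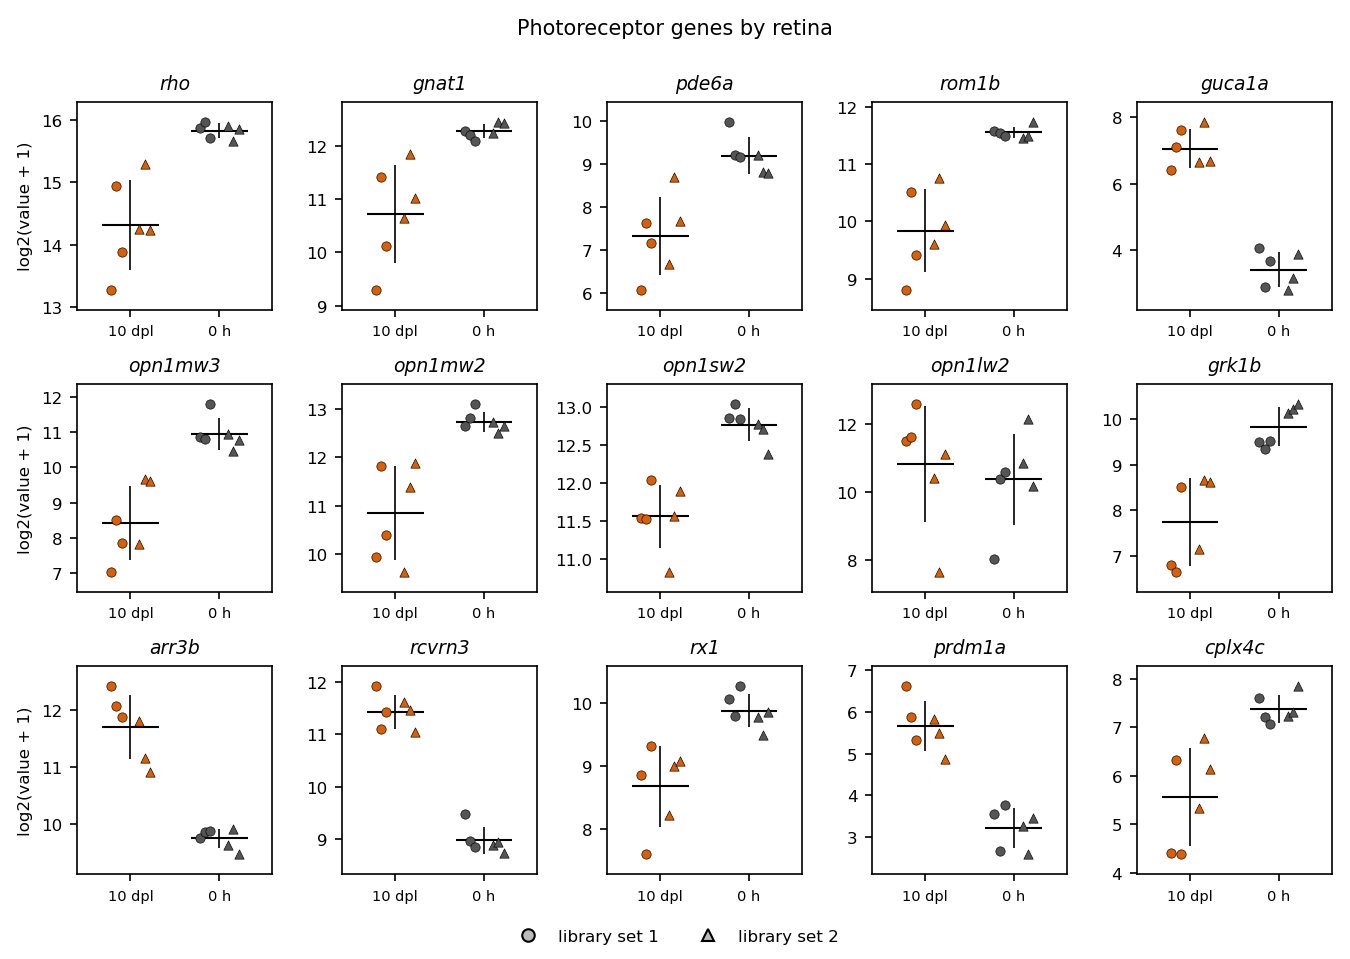
Level of 15 PR genes on the scale of log2(value + 1) (vertical axis) in the 6 retinas at 10 dpl (left, orange) and the 6 at 0 h (right, grey) with circles for library set 1 and triangles for library set 2. Horizontal lines are means and vertical lines ± 1 SD. The genes rho, gnat1, pde6a, rom1b, rx1 and grk1b are lower in all 10 dpl retinas than in all 0 h retinas, guca1a, arr3b, rcvrn3 and prdm1a are higher in all of them, and opn1lw2 overlaps fully.

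Cone opsins were also lower, though not all of them. Of 8 tested cone opsins 5 fell (62.5%, against 1.51% of all genes) and none rose, with a median log2 fold change of -1.47. The green opsin opn1mw3 had 129.9 to 814 (median 296) at 10 dpl, against 1428 to 3586 (median 1849) at 0 h (log2 fold change -2.54, standard error 0.43, adjusted p = 2.6e-05), without overlap. The copy opn1mw4 had 335 to 1796 (median 990.4) at 10 dpl, against 2334 to 3518 (median 2750.0) at 0 h (log2 fold change -1.72, standard error 0.405, adjusted p = 0.00314), also without overlap, and opn1mw2 fell as well (log2 fold change -1.88, standard error 0.46, adjusted p = 0.00441). The fourth copy, opn1mw1, had 473 to 3174 (median 1407) at 10 dpl, against 404 to 3173 (median 1996) at 0 h (log2 fold change -0.16, standard error 0.92, adjusted p = 0.959), with groups that overlapped almost fully. The green opsins are tandem copies, as are the red ones, and reads may be shared between copies, since the treatment of multiply mapped reads is not stated.

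The red opsin opn1lw1 fell (log2 fold change -1.79, standard error 0.37, adjusted p = 0.000722), and opn1lw2 had 202 to 6121 (median 2554) at 10 dpl, against 264 to 4530.0 (median 1435) at 0 h (log2 fold change 0.44, standard error 0.67, adjusted p = 0.808). The opn1lw2 range covered the 0 h range on both sides. The blue opsin opn1sw2 had 1816 to 4189 (median 2997) at 10 dpl, against 5342 to 8429 (median 7182) at 0 h (log2 fold change -1.21, standard error 0.299, adjusted p = 0.00537), lower in all 10 dpl retinas. The ultraviolet opsin opn1sw1 did not pass the test, with 7049 to 11908 (median 9697) at 10 dpl, against 9577 to 14873 (median 12741) at 0 h (log2 fold change -0.44, standard error 0.28, adjusted p = 0.429).

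Downstream of the opsins, 5 of 22 tested cone phototransduction genes fell (22.7%, against 1.51% of all genes) and 3 rose (13.6%, against 6.41%). The median log2 fold change was -0.28, and under median-of-ratios rescaling 7 fell and 3 rose. The opsin kinase grk1b had 98.9 to 407 (median 251) at 10 dpl, against 647 to 1294 (median 925) at 0 h (log2 fold change -2.11, standard error 0.51, adjusted p = 0.00441), and grk7b, a second opsin kinase, had 20.2 to 44.9 (median 27.9) at 10 dpl, against 59.2 to 142 (median 107) at 0 h (log2 fold change -1.81, standard error 0.401, adjusted p = 0.0016). The cone transducin gene gnat2 had 4528 to 5548 (median 4907) at 10 dpl, against 8056 to 11939.6 (median 10425) at 0 h (log2 fold change -1.07, standard error 0.303, adjusted p = 0.0182). All 3 were lower in every 10 dpl retina than in any 0 h retina. The cone guanylate cyclase gc3 fell with overlapping groups (log2 fold change -1.11, adjusted p = 0.0259), and gnb3b, the cone transducin beta subunit, fell by 0.89 on the log2 scale.

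Both cone arrestins, which shut off active cone opsins, rose. The cone arrestin arr3b had 1915 to 5454 (median 3643) at 10 dpl, against 708 to 960.4 (median 889) at 0 h (log2 fold change 1.95, standard error 0.28, adjusted p = 1.32e-06), and the other cone arrestin, arr3a, had 7861 to 13773 (median 10301) at 10 dpl, against 3494 to 7441 (median 5221) at 0 h (log2 fold change 0.98, standard error 0.24, adjusted p = 0.00552). A recoverin relative, rcvrn3, had 2103 to 3881 (median 2789) at 10 dpl, against 424 to 714 (median 481) at 0 h (log2 fold change 2.46, standard error 0.24, adjusted p = 6.11e-11). All 10 dpl retinas were higher for these 3 genes. The opsin kinases grk1b and grk7b were thus lower and the cone arrestins arr3a and arr3b higher. The opsin kinases grk7a, of the same list, and grk1a, of the rod list, were not among the genes that fell. The cone phosphodiesterase pde6c had 2726 to 4952 (median 3786) at 10 dpl, against 5534 to 7512 (median 5809.5) at 0 h and did not pass the test (log2 fold change -0.74, standard error 0.26, adjusted p = 0.0731), although its groups did not overlap.

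Genes of the outer segment's structure split. Of 14 tested members 4 fell (28.6%, against 1.51% of all genes) and 3 rose (21.4%, against 6.41%), with a median log2 fold change of -0.19. The 4 that fell were the disc rim genes rom1b, rom1a, prph2b and prph2a, whose products shape the edge of the disc membranes. Values of rom1b were 447 to 1734 (median 876) at 10 dpl, against 2809 to 3417 (median 2943) at 0 h (log2 fold change -1.71, standard error 0.26, adjusted p = 4.22e-06), without overlap. The log2 fold change was -1.203 for rom1a, -0.95 for prph2b and -0.502 for prph2a. In the other direction, unc119b, a carrier of lipid-anchored proteins such as transducin, had 1637 to 2224 (median 1933) at 10 dpl, against 764 to 1003 (median 820.5) at 0 h (log2 fold change 1.16, standard error 0.15, adjusted p = 9.35e-08), with all 10 dpl retinas higher. The membrane genes prom1b and cdhr1a rose by less, with log2 fold changes of 0.59 and 0.76. Under median-of-ratios rescaling 2 members of the list rose and 4 fell.

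Of 20 tested PR transcription factors 3 fell (15%, against 1.51% of all genes) and 1 rose (5%, against 6.41%), with a median log2 fold change of -0.17. All 3 were retinal homeobox genes. For rx1 the values were 192 to 637 (median 486) at 10 dpl, against 722 to 1237 (median 909) at 0 h (log2 fold change -1.205, standard error 0.25, adjusted p = 0.000734), with no overlap, and the log2 fold changes were -1.04 for rx2 and -0.79 for rx3. The repressor prdm1a, known in mouse for its part in the choice of PR fate, had 28.1 to 97.7 (median 50.3) at 10 dpl, against 5.03 to 12.7 (median 9.31) at 0 h (log2 fold change 2.45, standard error 0.32, adjusted p = 1.28e-07), higher in all 10 dpl retinas. The PR regulators crx and nr2e3 did not pass the test, with log2 fold changes of -0.19 (adjusted p = 0.413) and 1.15 (adjusted p = 0.0507).

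At the synapse, 4 of 41 tested vesicle and ribbon synapse genes fell (9.76%, against 1.51% of all genes) and none rose. The complexin cplx4c, which controls vesicle release at ribbon synapses, had 19.97 to 109 (median 54.5) at 10 dpl, against 132 to 229 (median 154) at 0 h (log2 fold change -1.82, standard error 0.35, adjusted p = 0.000223), without overlap. The calcium-binding gene cabp4, known in mouse to tune the calcium channel of PR terminals, had 52.02 to 229 (median 127) at 10 dpl, against 179 to 412 (median 307) at 0 h (log2 fold change -1.22, standard error 0.27, adjusted p = 0.00138), with overlap of the groups. The others were syt5b and amph, with log2 fold changes of -0.897 and -0.58. The median log2 fold change of the synapse list was -0.07.

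The visual cycle, which rebuilds the 11-cis chromophore that light has used up, included several genes that rose. Of 27 tested members 6 rose (22.2%, against 6.41% of all genes) and 1 fell (3.70%, against 1.51%), with a median log2 fold change of 0.41. Under median-of-ratios rescaling 5 rose and 1 fell. The 11-cis retinol dehydrogenase rdh5 had 181 to 436 (median 283) at 10 dpl, against 11.6 to 87.3 (median 52.58) at 0 h (log2 fold change 2.58, standard error 0.35, adjusted p = 3.25e-07), and the isomerase rpe65a had 2771 to 4891 (median 4339.5) at 10 dpl, against 507 to 1343 (median 1038) at 0 h (log2 fold change 1.98, standard error 0.23, adjusted p = 9.77e-09). The opsin rgra, of a family that binds all-trans retinal, had 507 to 895 (median 699) at 10 dpl, against 197 to 369.7 (median 293) at 0 h (log2 fold change 1.32, standard error 0.19, adjusted p = 1.11e-06). These 3 genes were higher in all 10 dpl retinas than in any 0 h retina. The one that fell was rdh8b, a relative of the PR all-trans retinol dehydrogenase, with 27.97 to 67.3 (median 46.04) at 10 dpl, against 123 to 191 (median 158) at 0 h (log2 fold change -1.78, standard error 0.28, adjusted p = 8.62e-06), and it did so without overlap.

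Melanosome genes rose beside them, with 5 of 12 tested members higher (41.7%, against 6.41% of all genes) and none lower (median log2 fold change 1.12). The melanin enzyme tyrp1b had 1002 to 1570.2 (median 1187) at 10 dpl, against 192 to 376 (median 286) at 0 h (log2 fold change 2.12, standard error 0.32, adjusted p = 4.38e-06), with no overlap. Values of slc16a8, a lactate carrier of the pigment epithelium, were 18.9 to 57.7 (median 36.5) at 10 dpl, against 1.86 to 20.7 (median 7.105) at 0 h (log2 fold change 2.31, standard error 0.55, adjusted p = 0.00332), and the calls of dct (log2 fold change 1.37) and pmela (0.78) were lost under median-of-ratios rescaling. Of 6 tested pigment epithelium markers 4 rose, and their summed level was 8068 to 12535 (median 10679) at 10 dpl, against 3588 to 7406 (median 5668) at 0 h, with none at 0. The part of pigment epithelium left on the dissected retinas in the visual cycle results was not tested.

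Microglial genes rose. Of 35 tested microglia and macrophage genes 19 rose and 1 fell, against 6.41% and 1.51% of all genes, with a median log2 fold change of 1.34. With median-of-ratios rescaling 17 rose. The gene lgals3bpb, whose product binds secreted galectins, had 82.5 to 311 (median 118) at 10 dpl, against 15.8 to 37.9 (median 18.6) at 0 h (log2 fold change 2.603, standard error 0.61, adjusted p = 0.00313). The macrophage pore protein gene mpeg1.1 had 29.2 to 72.1 (median 36.3) at 10 dpl, against 6.79 to 13.7 (median 10.7) at 0 h (log2 fold change 1.85, standard error 0.42, adjusted p = 0.00224), and c1qa, which opens the classical complement cascade, had 3.52 to 12.5 (median 8.95) at 10 dpl, against 0 to 3.12 (median 0.521) at 0 h (log2 fold change 2.395, standard error 0.58, adjusted p = 0.00442). All 10 dpl retinas were above all 0 h retinas in these 3 genes.

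The galectin lgals9l1 and the lipid carrier apoeb, both known markers of zebrafish microglia, had log2 fold changes of 2.91 and 1.26. The myeloid transcription factor spi1b had 53.2 to 95.3 (median 77.3) at 10 dpl, against 25.9 to 45.7 (median 33.2) at 0 h (log2 fold change 1.08, standard error 0.29, adjusted p = 0.012). Genes of the leukocyte cytoskeleton and oxidase rose with it, among them rac2 at 2.42, lcp1 at 1.92, coro1a at 1.57 and ncf1 at 1.77 on the log2 scale. The receptor csf1ra, on which microglia depend, did not pass the test (log2 fold change 1.16, standard error 0.47, adjusted p = 0.136), and the gene that fell was the adaptor samsn1a, by 0.63 on the log2 scale. The sum of 6 microglial markers was 97.7 to 178 (median 157) at 10 dpl, against 42.7 to 59.9 (median 51.3) at 0 h, with none at 0. Of 8 tested genes of the neutrophil list 2 rose (25%, against 6.41% of all genes). They were ncf1, which is also in the microglial list, and lyz, a lysozyme gene of granulocytes and macrophages. The values of lyz were 14.8 to 50.9 (median 24.6) at 10 dpl, against 1.499 to 12.8 (median 5.04) at 0 h (log2 fold change 2.33, standard error 0.38, adjusted p = 1.77e-05). The sum of 4 neutrophil markers, of which lyz alone was tested, was 15.0 to 52.5 at 10 dpl, against 1.55 to 14.2 at 0 h. The part of neutrophils in the leukocyte results was not tested.

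Lysosomal genes, by which phagocytes degrade what they take up, rose in 11 of 31 tested members (35.5%, against 6.41% of all genes) and fell in none (median log2 fold change 0.53). The cathepsin ctsd had 469 to 823 (median 549) at 10 dpl, against 163 to 445 (median 293) at 0 h (log2 fold change 1.09, standard error 0.22, adjusted p = 0.000343), and ctsc had 29.2 to 98.98 (median 68.98) at 10 dpl, against 15.9 to 23.9 (median 20.7) at 0 h (log2 fold change 1.61, standard error 0.26, adjusted p = 9.04e-06). The tetraspanin cd63, of late endosomes, had 208 to 366 (median 265) at 10 dpl, against 62.9 to 135 (median 94.9) at 0 h (log2 fold change 1.56, standard error 0.203, adjusted p = 1.33e-07). No 10 dpl retina fell within the 0 h range of these 3 genes. The peptidase tpp1 had the largest rise of the list, with a log2 fold change of 2.07. Under median-of-ratios rescaling 8 members rose.

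**Figure D3:**
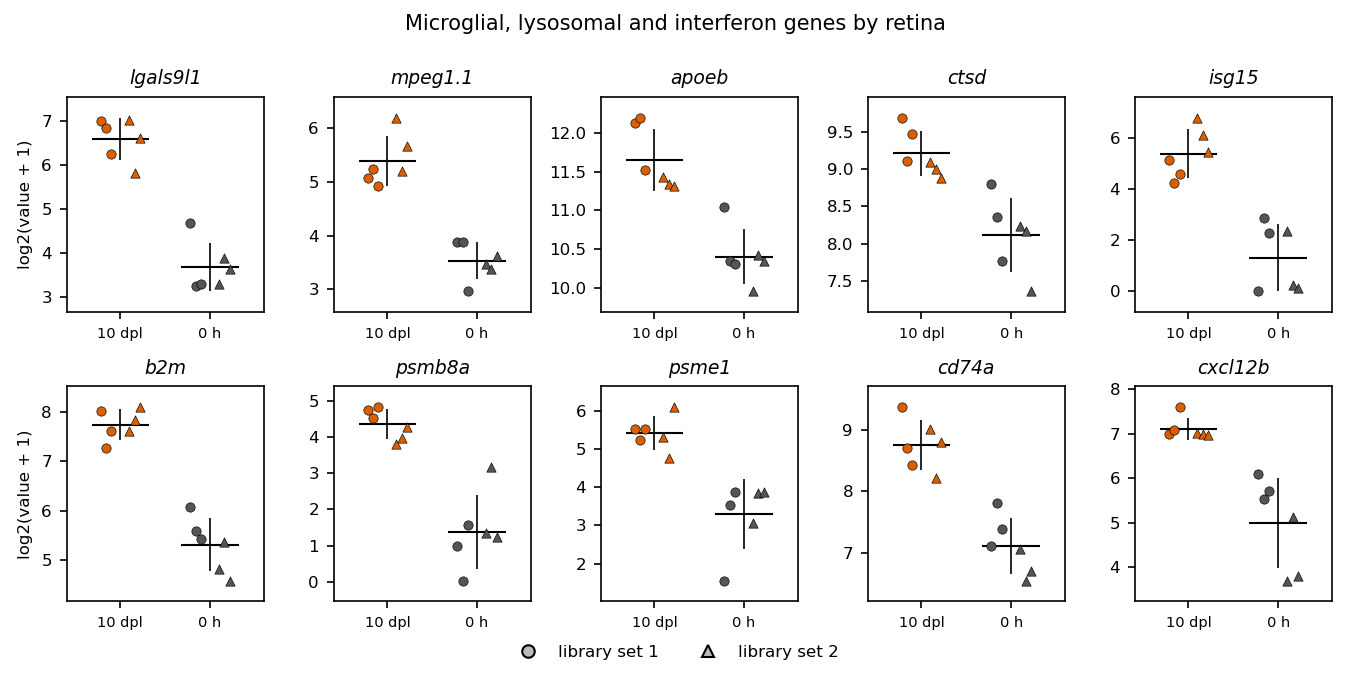
Level of 10 microglial, lysosomal, interferon and chemokine genes on the scale of log2(value + 1) (vertical axis) in the 6 retinas at 10 dpl (left, orange) and the 6 at 0 h (right, grey), with circles for library set 1 and triangles for library set 2, lines at the mean and bars of ± 1 SD. In each of the 10 genes all 10 dpl retinas lie above all 0 h retinas, as in 3.89% of all tested genes. The 10 genes were picked with their values known, so this count says nothing about their lists.

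Interferon and antigen presentation genes had the largest share of rising members. Of 31 tested members 18 rose (58.1%, against 6.41% of all genes) and none fell, with a median log2 fold change of 1.64, and 15 rose with median-of-ratios rescaling. The ubiquitin-like isg15, one of the most strongly interferon-induced genes in vertebrates, had 17.7 to 108 (median 38.2) at 10 dpl, against 0 to 6.26 (median 2.05) at 0 h (log2 fold change 4.06, standard error 0.68, adjusted p = 2.6e-05), so that every 10 dpl retina was above every 0 h retina. The 3 highest 10 dpl libraries were those of set 2.

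Genes at several steps of the class I antigen pathway rose. The immunoproteasome subunits psmb8a, psmb12 and psmb9a had log2 fold changes of 2.97, 2.27 and 1.97. Values of psmb8a were 12.97 to 27.4 (median 20.1) at 10 dpl, against 0.0229 to 7.99 (median 1.45) at 0 h (log2 fold change 2.97, standard error 0.46, adjusted p = 5.04e-06), whereas psmb5, the subunit of the standard proteasome that psmb8 replaces, had 95.9 to 122 (median 106) at 10 dpl, against 74.1 to 105 (median 83.8) at 0 h (log2 fold change 0.304, standard error 0.17, adjusted p = 0.34). The proteasome activator psme1 had 26.2 to 67.5 (median 42.2) at 10 dpl, against 1.94 to 13.7 (median 12.04) at 0 h (log2 fold change 2.12, standard error 0.35, adjusted p = 1.52e-05). Of 39 tested genes of the standard proteasome 1 rose (2.56%, against 6.41% of all genes). It was psmd5, a call that was lost under median-of-ratios rescaling.

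Further along the pathway, abcb3l1, a relative of the peptide transporter of the endoplasmic reticulum, rose by 2.23 on the log2 scale, and tapbp.1, which loads peptide onto class I molecules, had 27.5 to 49.5 (median 40.2) at 10 dpl, against 6.11 to 19.9 (median 13.6) at 0 h (log2 fold change 1.64, standard error 0.34, adjusted p = 0.000734). The class I heavy chain mhc1zba had 98.4 to 142 (median 105) at 10 dpl, against 23.3 to 31.5 (median 28.2) at 0 h (log2 fold change 1.98, standard error 0.24, adjusted p = 3.39e-08), and the light chain b2m had 153 to 273 (median 212) at 10 dpl, against 23.03 to 66.7 (median 40.98) at 0 h (log2 fold change 2.43, standard error 0.39, adjusted p = 1.04e-05). The groups did not overlap for tapbp.1, mhc1zba or b2m. The class II chaperone cd74a had 296 to 659 (median 430.5) at 10 dpl, against 92.97 to 223 (median 136) at 0 h (log2 fold change 1.64, standard error 0.399, adjusted p = 0.00451), and cd74b had a log2 fold change of 1.99.

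Genes of interferon signalling rose as well. The transcription factor gene stat1a had 307 to 541 (median 338) at 10 dpl, against 132 to 301 (median 187) at 0 h (log2 fold change 0.94, standard error 0.27, adjusted p = 0.0166) and stat2 had 179.7 to 563 (median 223) at 10 dpl, against 63.7 to 120.4 (median 96.98) at 0 h (log2 fold change 1.34, standard error 0.42, adjusted p = 0.0381), while irf9 had a log2 fold change of 1.21 and irf1b of 1.55. The calls of stat1a and stat2 were lost under median-of-ratios rescaling. Replicate 4 was the highest 10 dpl retina for isg15, stat1a and stat2.

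Of 31 tested cytokines, chemokines and receptors 3 rose (9.68%) and none fell, a share of rises near the 6.41% of all genes. The list did not hold the leptin gene lepa or the cytokine subunit ebi3, which rose and are given below. The chemokine cxcl12b had 125 to 193 (median 128) at 10 dpl, against 12.1 to 67.7 (median 39.7) at 0 h (log2 fold change 2.11, standard error 0.28, adjusted p = 2.87e-07), without overlap, and its receptor cxcr4b had 1.93 to 21.6 (median 10.6) at 10 dpl, against 0 to 4.17 (median 1.99) at 0 h (log2 fold change 2.08, standard error 0.63, adjusted p = 0.0288), with overlap. The third was the receptor cxcr3.2 (log2 fold change 1.82). Of 16 tested complement genes 1 rose (6.25%, against 6.41% of all genes) and none fell. The gene that rose was cfp, the stabiliser of the alternative pathway's convertase (log2 fold change 1.67, standard error 0.27, adjusted p = 1.45e-05).

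MG markers were divided, with 3 of 24 tested members higher (12.5%, against 6.41% of all genes) and 1 lower (4.17%, against 1.51%). Their median log2 fold change was 0.02. The prostaglandin D synthase gene ptgdsb.1 had 315 to 794 (median 661) at 10 dpl, against 5.31 to 26.3 (median 16.2) at 0 h (log2 fold change 5.22, standard error 0.54, adjusted p = 5.08e-10), the largest rise of all genes that the naming rule took in. The related gene ptgdsb.2 had 425 to 1092 (median 725) at 10 dpl, against 118 to 215 (median 154) at 0 h (log2 fold change 2.16, standard error 0.35, adjusted p = 1.54e-05). For both, all 10 dpl retinas were higher. The lipid-binding gene fabp7a fell (log2 fold change -0.88, standard error 0.27, adjusted p = 0.0282). The filament gene gfap, a marker of reactive glia, did not pass the test (log2 fold change -0.33, standard error 0.31, adjusted p = 0.645), nor did the glutamine synthetase gene glula, with 1599 to 2251 (median 1768) at 10 dpl, against 1638 to 2773 (median 2261) at 0 h (log2 fold change -0.24, standard error 0.22, adjusted p = 0.613).

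Genes known from MG reprogramming rose in 8 of 36 tested members (22.2%, against 6.41% of all genes) and fell in none (median log2 fold change 0.32). The transcription factor sox11b, of the SoxC group that acts in neural progenitors, had 579 to 941 (median 786) at 10 dpl, against 32.3 to 56.6 (median 48.6) at 0 h (log2 fold change 4.07, standard error 0.27, adjusted p = 2.08e-16), far above the 0 h range in every retina. Its duplicate sox11a had 443 to 648 (median 586) at 10 dpl, against 365 to 413 (median 389) at 0 h and did not pass the test (log2 fold change 0.51, standard error 0.27, adjusted p = 0.305), although its groups did not overlap. The proneural factor ascl1a, required for MG reprogramming in zebrafish, had 6.94 to 33.9 (median 17.3) at 10 dpl, against 0.122 to 5.902 (median 2.91) at 0 h (log2 fold change 2.38, standard error 0.58, adjusted p = 0.00505), from low values and without overlap.

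Among the 8 rises of the reprogramming list were 5 leptin and Jak/Stat members, a grouping that was not a list of its own and was not tested as a set. The kinase jak2a (log2 fold change -0.01, standard error 0.22, adjusted p = 0.986) and the cytokine receptor crlf1a (log2 fold change 0.75, standard error 0.57, adjusted p = 0.541) did not pass the test, and lepb and socs3a were too low to be tested. The leptin gene lepa had 34.5 to 82.2 (median 48.5) at 10 dpl, against 1.93 to 35.4 (median 6.66) at 0 h (log2 fold change 2.76, standard error 0.51, adjusted p = 0.000139), and its receptor lepr had 33.97 to 104 (median 35.6) at 10 dpl, against 0.954 to 41.5 (median 7.15) at 0 h (log2 fold change 2.42, standard error 0.41, adjusted p = 2.95e-05). In both the highest 0 h retina reached into the 10 dpl range. The signal transducer stat3 had 129 to 188 (median 168) at 10 dpl, against 50.8 to 126 (median 76.5) at 0 h (log2 fold change 1.05, standard error 0.23, adjusted p = 0.00113), and the feedback inhibitor socs3b had 12.5 to 32.997 (median 26.4) at 10 dpl, against 0.951 to 8.85 (median 4.28) at 0 h (log2 fold change 2.32, standard error 0.52, adjusted p = 0.00184). The kinase jak1 rose by 0.83 on the log2 scale and the matrix protease mmp14b by 1.46.

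Cell cycle genes rose in shares near that of all genes. Of 38 tested DNA replication genes 3 rose and none fell, a share of 7.89% against 6.41% of all genes, and of 41 mitosis genes 4 rose (9.76%). The 3 were the helicase subunits mcm2, mcm5 and mcm7. Values of mcm7 were 67.6 to 121 (median 116) at 10 dpl, against 25.6 to 62.2 (median 51.9) at 0 h (log2 fold change 1.11, standard error 0.21, adjusted p = 0.000208) and of mcm2 4.202 to 16.9 (median 13.2) at 10 dpl, against 0.964 to 2.9001 (median 1.73) at 0 h (log2 fold change 2.14, standard error 0.51, adjusted p = 0.0035), and neither overlapped. The replication clamp pcna did not pass the test, with 133 to 203 (median 178) at 10 dpl, against 98.9 to 158 (median 125) at 0 h (log2 fold change 0.46, standard error 0.18, adjusted p = 0.116). The replication list had a median log2 fold change of 0.50 and the mitosis list of 0.49, against 0.16 over all genes.

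Of 54 tested clock and light-regulated genes 17 rose (31.5%, against 6.41% of all genes) and 2 fell (3.70%, against 1.51%), with a median log2 fold change of 0.15. Under median-of-ratios rescaling 15 rose and 3 fell. The period gene per2, which light induces in zebrafish cells, had 272 to 411 (median 322) at 10 dpl, against 55.7 to 82.2 (median 71.3) at 0 h (log2 fold change 2.23, standard error 0.16, adjusted p = 9.47e-15). The flavoprotein gene cry-dash had 21.95 to 66.6 (median 42.98) at 10 dpl, against 1.103 to 9.78 (median 3.88) at 0 h (log2 fold change 3.04, standard error 0.29, adjusted p = 6.45e-11), and nr1d1, a nuclear receptor that represses the clock's positive arm, had 37.8 to 122 (median 97.2) at 10 dpl, against 8.25 to 32.2 (median 13.2) at 0 h (log2 fold change 2.33, standard error 0.25, adjusted p = 1.52e-09). All 10 dpl retinas were higher than all 0 h retinas in these genes. The light-induced cry1aa had 502 to 621 (median 528) at 10 dpl, against 191 to 297 (median 241) at 0 h (log2 fold change 1.18, standard error 0.17, adjusted p = 9e-07). The repressors nr1d4a, nr1d4b, ciarta and bhlhe41 rose by 2.33, 2.38, 2.24 and 1.94, and dbpb, a D-box binding factor, by 2.09, on the log2 scale.

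The period gene per1b did not pass the test (log2 fold change -0.71, standard error 0.27, adjusted p = 0.107). The melatonin enzyme gene aanat1 fell (log2 fold change -0.84, standard error 0.26, adjusted p = 0.0312), with overlap of the groups, and rorab fell by 0.70 on the log2 scale. Since the 0 h fish came out of the dark and the 10 dpl fish out of the light, and sampling hours per library were not used here, the clock values at 10 dpl cannot be split into time of day and light.

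Of 36 tested early genes of the response to activity and stress 4 fell, 3 rose and 29 did not pass the test (median log2 fold change -0.04). The transcription factor egr4 had 4.51 to 8.86 (median 6.78) at 10 dpl, against 35.3 to 325 (median 144) at 0 h (log2 fold change -4.09, standard error 0.45, adjusted p = 2.23e-09), npas4a, a factor induced by calcium entry in neurons, had 2.48 to 25.5 (median 13.1) at 10 dpl, against 10.7 to 420.3 (median 168) at 0 h (log2 fold change -2.88, standard error 0.64, adjusted p = 0.00177), and ier2 had 20.5 to 59.5 (median 38.4) at 10 dpl, against 92.4 to 460.3 (median 258) at 0 h (log2 fold change -2.54, standard error 0.44, adjusted p = 4.57e-05). The growth-arrest gene btg2 had a log2 fold change of -1.75. In the dark each of these genes was higher in set 2 than in set 1, though none of the 4 passed the test of a difference in change between the sets (adjusted p = 0.372 for egr4, 0.486 for npas4a, 0.304 for ier2 and 0.48 for btg2). Another member of the list, gadd45ga, did pass this test, with a log2 change, set 2 minus set 1, of -3.145. In set 2 npas4a was 9.53 to 25.5 at 10 dpl and 298 to 420 at 0 h, and in set 1 it was 2.48 to 15.1 at 10 dpl and 10.7 to 37.9 at 0 h. For egr4 the ranges were 4.51 to 8.86 at 10 dpl and 206 to 325 at 0 h in set 2, and 6.77 to 7.09 at 10 dpl and 35.3 to 82.7 at 0 h in set 1. The groups of egr4 and ier2 did not overlap, and those of npas4a did. The immediate early gene fosab did not pass the test (log2 fold change -1.49, adjusted p = 0.0831), at 47.7 to 62.7 at 10 dpl and 389 to 571 at 0 h in set 2, against 62.5 to 118 at 10 dpl and 51.9 to 103 at 0 h in set 1.

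Of the members that rose, atf3 and jun did not overlap between the groups. The stress factor atf3 had 293 to 558 (median 421) at 10 dpl, against 19.6 to 50.7 (median 34.5) at 0 h (log2 fold change 3.53, standard error 0.32, adjusted p = 1.36e-11), and its dimer partner jun had 195 to 371 (median 266) at 10 dpl, against 36.97 to 63.5 (median 43.9) at 0 h (log2 fold change 2.52, standard error 0.32, adjusted p = 7.09e-08). The third was maff, a small Maf factor, with a log2 fold change of 1.08.

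Genes of DNA repair and the damage response rose in 9 of 32 tested members (28.1%, against 6.41% of all genes), and none fell (median log2 fold change 0.47). With median-of-ratios rescaling 5 rose and 2 fell. The ultraviolet damage sensor ddb2 had 86.2 to 219.7 (median 144) at 10 dpl, against 5.15 to 17.9 (median 9.56) at 0 h (log2 fold change 3.71, standard error 0.22, adjusted p = 4.7e-18), and its partner in nucleotide excision repair xpc had 142 to 255 (median 167) at 10 dpl, against 60.3 to 119 (median 72.8) at 0 h (log2 fold change 1.18, standard error 0.29, adjusted p = 0.00529). The glycosylase neil1, which removes oxidised bases, had 79.9 to 119 (median 105) at 10 dpl, against 18.02 to 51.004 (median 40.2) at 0 h (log2 fold change 1.49, standard error 0.21, adjusted p = 8.48e-07). In all 3 every 10 dpl retina was higher. The cell cycle inhibitor cdkn1a had 36.3 to 59.8 (median 51.7) at 10 dpl, against 3.899 to 20.5 (median 9.33) at 0 h (log2 fold change 2.27, standard error 0.35, adjusted p = 5.73e-06), without overlap.

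Of 35 tested endoplasmic reticulum stress genes 9 rose (25.7%, against 6.41% of all genes) and none fell (median log2 fold change 0.37). With median-of-ratios rescaling 6 rose. The chaperone hspa5 had 553 to 849 (median 614) at 10 dpl, against 192 to 318 (median 249) at 0 h (log2 fold change 1.39, standard error 0.24, adjusted p = 4.89e-05), and xbp1, a transcription factor of the unfolded protein response, had 750.4 to 1072 (median 906) at 10 dpl, against 278 to 504 (median 401) at 0 h (log2 fold change 1.202, standard error 0.199, adjusted p = 2.04e-05), both without overlap. The other 7 rises, from trib3 at 1.41 to pdia3 at 0.62 on the log2 scale, took in asns, hyou1, ddit3, herpud1 and pdia6. Among 42 tested heat shock genes 5 rose (11.9%, against 6.41% of all genes) and none fell, with 3 rises under median-of-ratios rescaling. The mitochondrial chaperonin hspd1 had 229 to 426 (median 282) at 10 dpl, against 106 to 143 (median 125) at 0 h (log2 fold change 1.26, standard error 0.202, adjusted p = 1.18e-05), and the inducible hsp70l had 45.5 to 171 (median 100.2) at 10 dpl, against 14.9 to 36.5 (median 25.7) at 0 h (log2 fold change 1.87, standard error 0.57, adjusted p = 0.028), a call that was lost under median-of-ratios rescaling.

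Redox and iron genes rose in 13 of 55 tested members (23.6%, against 6.41% of all genes) and fell in none (median log2 fold change 0.32). Under median-of-ratios rescaling 10 rose. Thioredoxin, txn, which reduces disulphides in oxidised proteins, had 30.5 to 133 (median 111) at 10 dpl, against 3.24 to 17.7 (median 11.5) at 0 h (log2 fold change 3.15, standard error 0.41, adjusted p = 1.33e-07). The heme oxygenase hmox2a had 199 to 259 (median 230.0) at 10 dpl, against 40.5 to 82.8 (median 48.9) at 0 h (log2 fold change 2.09, standard error 0.16, adjusted p = 1.64e-14), and blvra, which turns its product biliverdin into bilirubin, had 8.09 to 17.8 (median 12.005) at 10 dpl, against 0.019 to 2.93 (median 1.79) at 0 h (log2 fold change 2.37, standard error 0.36, adjusted p = 3.99e-06). None of these overlapped. The inducible heme oxygenase hmox1a had 9.59 to 42.99 (median 17.8) at 10 dpl, against 1.92 to 17.1 (median 4.53) at 0 h (log2 fold change 1.796, standard error 0.49, adjusted p = 0.0131), with overlap. Outside the list fam213b, a thioredoxin-like gene related to prostaglandin F synthase, had 14.3 to 35.3 (median 26.5) at 10 dpl, against 0 to 1.97 (median 0.025) at 0 h (log2 fold change 4.38, standard error 0.297, adjusted p = 5.65e-16), from values near 0.

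**Figure D4:**
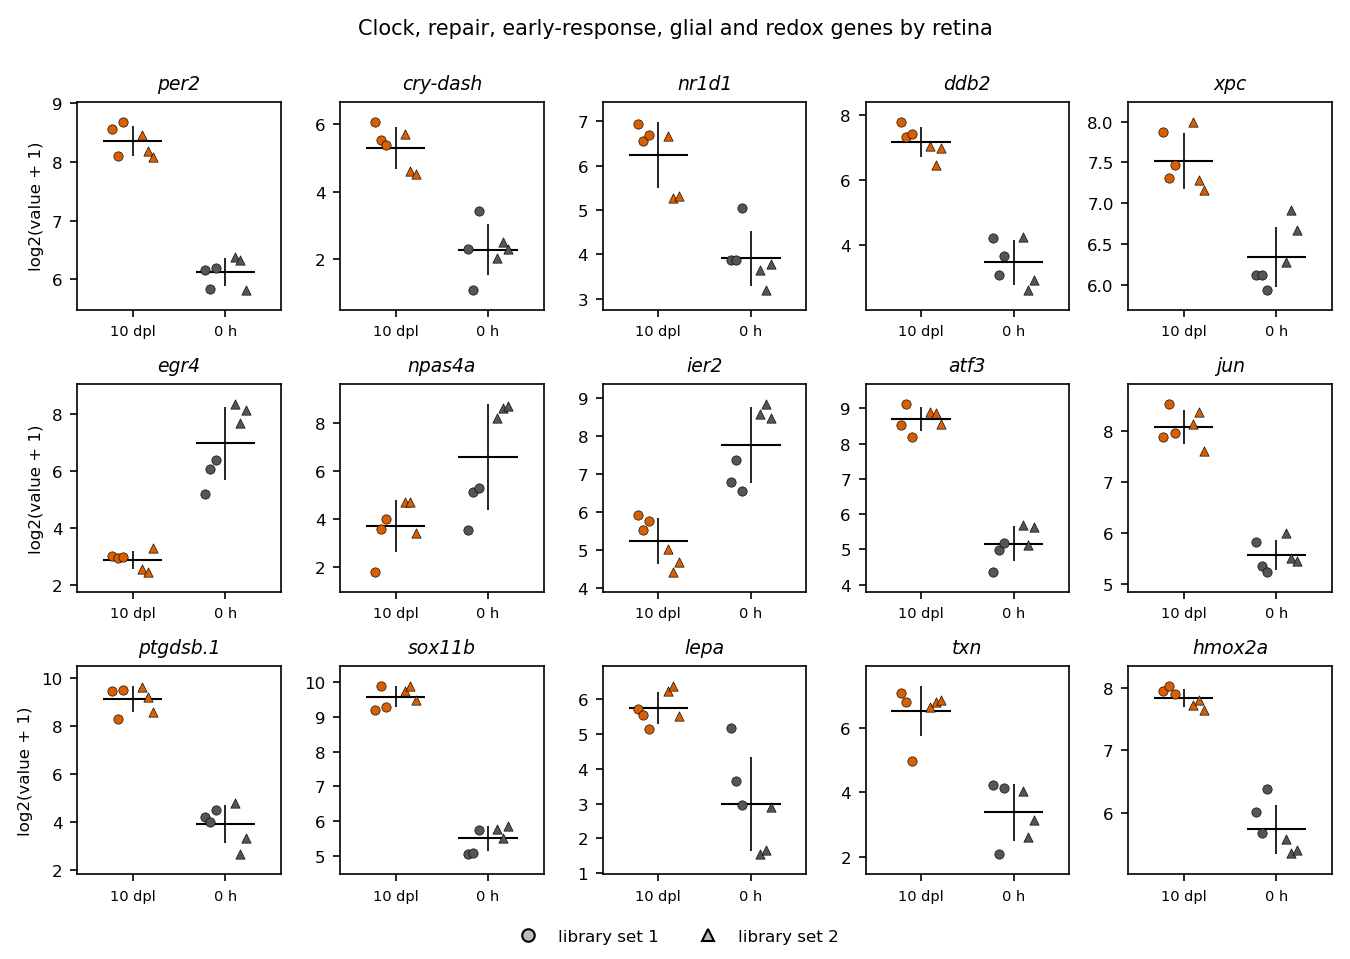
Level of 15 clock, repair, early-response, glial and redox genes on the scale of log2(value + 1) (vertical axis) in the 6 retinas at 10 dpl (left, orange) and the 6 at 0 h (right, grey), with circles for library set 1, triangles for library set 2, lines at the mean and bars of ± 1 SD. The 0 h retinas of egr4, npas4a and ier2 split by library set, with set 2 higher, whereas per2, ddb2, atf3, jun, ptgdsb.1, sox11b and hmox2a are higher at 10 dpl in every retina.

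Metabolic lists had small numbers of calls, set here against 6.41% rising and 1.51% falling among all genes. Of 27 tested cholesterol synthesis genes 3 fell and none rose (median log2 fold change -0.25). The rate-limiting reductase hmgcra had 20.8 to 45.2 (median 28.9) at 10 dpl, against 76.99 to 125 (median 91.7) at 0 h (log2 fold change -1.57, standard error 0.29, adjusted p = 9.81e-05), without overlap, and the log2 fold changes were -1.31 for cyp51 and -1.002 for hmgcs1. Of 34 tested fatty acid oxidation genes 4 rose (11.8%) and none fell, led by the mitochondrial dehydrogenase acadvl, with 43.2 to 122 (median 76.1) at 10 dpl, against 17.2 to 21.6 (median 17.8) at 0 h (log2 fold change 1.89, standard error 0.24, adjusted p = 1.11e-07). Glycolysis had 2 rises (4.88%) and 3 falls (7.32%) in 41 tested members, and the respiratory chain 7 rises (8.33%) and no fall in 84, with a median log2 fold change of -0.02. The enolases went both ways, with eno1b at -0.92, eno2 at -0.84 and eno3 at 0.88 on the log2 scale.

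Cytosolic ribosomal protein genes rose in 29 of 83 tested members (34.9%, against 6.41% of all genes), all by small amounts. The median log2 fold change of the list was 0.37. After median-of-ratios rescaling only 2 rose, and the median was 0.22. Of the 29 rises the largest was rpl11 at 0.63.

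Inner retinal neurons showed few changes. Of 47 tested markers 1 rose (2.13%, against 6.41% of all genes) and 1 fell (2.13%, against 1.51%), and 3 fell under median-of-ratios rescaling. The one that rose, gap43, a growth-associated protein of axons, had 103 to 149 (median 112) at 10 dpl, against 35.3 to 86.1 (median 60.7) at 0 h (log2 fold change 1.002, standard error 0.23, adjusted p = 0.00211), and its groups did not overlap. The neuronal RNA-binding genes elavl3 and elavl4 did not pass the test, with log2 fold changes of 0.23 (adjusted p = 0.845) and -0.04 (adjusted p = 0.925). Outside the lists the neuropeptide gene npy had 10.4 to 25.1 (median 19.2) at 10 dpl, against 48.3 to 92.5 (median 79.4) at 0 h (log2 fold change -1.98, standard error 0.27, adjusted p = 3.33e-07), lower in all 10 dpl retinas.

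Other tissues that dissection can bring along were checked by their markers. Of the lens markers 1 of 1 tested member rose, mipa, with sums of 2.77 to 10.97 at 10 dpl and 0 to 7.57 at 0 h over 4 markers and crygm2d1 at 0. None of the 2 or 3 tested defining markers each of endothelium, erythrocytes, T cells, myelin, muscle, surface epithelium and egg passed the test, and zp2.1 of the egg markers was at 0. In the longer lists 2 of 15 tested lens genes rose (13.3%, against 6.41% of all genes), mipa and crygm2d16. The gene tspo, of a mitochondrial membrane protein also known from activated microglia, rose among 13 tested erythrocyte genes (7.69%, 2.07 on the log2 scale). So did icn (1.35) and pfn1 (1.204) among 25 of surface epithelium (8%) and vtg1 (1.27) among 24 of the egg (4.17%). In the same lists nme2b.2 fell among 16 muscle genes (-2.22) and tox among 9 of lymphocytes (-0.61), and none of 16 endothelial genes passed. Under median-of-ratios rescaling icn and vtg1 did not pass, 1 lens gene rose and 1 endothelial gene fell. The sums of 2 erythrocyte markers were 7.56 to 168 at 10 dpl and 95.3 to 156 at 0 h. Their part in the results above was not tested.

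Among the remaining large changes, the matrix gene crtac1a had 4.84 to 47.6 (median 27.1) at 10 dpl, against 0.0115 to 2.96 (median 0.521) at 0 h (log2 fold change 3.803, standard error 0.58, adjusted p = 4.43e-06), and the cytokine subunit ebi3 had 8.56 to 37.4 (median 24.3) at 10 dpl, against 0 to 2.95 (median 1.37) at 0 h (log2 fold change 3.34, standard error 0.52, adjusted p = 6.53e-06). Both were low at 0 h and higher in every 10 dpl retina. The largest falls outside the lists included slc25a25a, a mitochondrial carrier of adenine nucleotides, with 131 to 273 (median 221) at 10 dpl, against 897 to 1272 (median 1112) at 0 h (log2 fold change -2.33, standard error 0.33, adjusted p = 9e-07), and it too did not overlap.

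The 10 dpl retinas were next set against those of 5 and 14 dpl, 6 per time-point, to see where 10 dpl stood apart from its neighbours in time. These comparisons share the 10 dpl libraries with the comparison above and are not independent of it. Against 5 dpl 4 genes of 11395 passed the test (0.0351%), 3 of them with a fold of at least 2, while 708 had an unadjusted p under 0.05. The melatonin enzyme aanat2 averaged 386 ± 127 at 0 h, 172 ± 41.3 at 5 dpl, 582 ± 281 at 10 dpl and 553 ± 309 at 14 dpl (SD, n = 6 each), a log2 difference of 10 over 5 dpl of 1.64 (standard error 0.28, adjusted p = 0.00538). The Polycomb gene bmi1b, a chromatin repressor, averaged 42.5 ± 7.899 at 0 h, 40.7 ± 10.8 at 5 dpl, 96.9 ± 31.5 at 10 dpl and 54.7 ± 21.5 at 14 dpl, with a log2 difference over 5 dpl of 1.21 (standard error 0.23, adjusted p = 0.0103). The cryptochrome cry1ba averaged 908 ± 142 at 0 h, 779 ± 348 at 5 dpl, 1496 ± 397 at 10 dpl and 1439 ± 353 at 14 dpl, with a difference of 1.02 (standard error 0.19, adjusted p = 0.00612), and the chromatin protein gene hmgb1a had a difference of 0.74 (standard error 0.13, adjusted p = 0.00612). All 4 were higher at 10 dpl. Since aanat2 and cry1ba belong to the clock list and sampling hours were not used, time of day and days of light cannot be told apart for them.

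Against 14 dpl 26 genes were higher at 10 dpl (0.228%) and 2 lower (0.0176%). The higher ones included 6 PR genes that had fallen at 10 dpl against 0 h, namely gnat1, pde6a, gnb1b, pde6g, pdca and cabp4. Values of gnat1 averaged 4998 ± 476 at 0 h, 1211 ± 163 at 5 dpl, 1973 ± 1112 at 10 dpl and 703 ± 194 at 14 dpl (SD, n = 6 each), with a log2 difference of 10 over 14 dpl of 1.32 (standard error 0.27, adjusted p = 0.0144), and pde6a averaged 610.5 ± 208 at 0 h, 104 ± 37.7 at 5 dpl, 187 ± 123 at 10 dpl and 47.2 ± 15.9 at 14 dpl, with a difference of 1.79 (standard error 0.34, adjusted p = 0.00744). The gene cabp4 had 1.73 (standard error 0.27, adjusted p = 0.000497), gnb1b 1.01 (standard error 0.23, adjusted p = 0.0305) and pdca, which encodes a phosducin that binds transducin, 1.42 (standard error 0.27, adjusted p = 0.0053). All of these were lower at 14 dpl than at 10 dpl, while rho had 0.799 (standard error 0.28, adjusted p = 0.212) and did not pass the test.

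Some genes that had risen were also higher at 10 than at 14 dpl. The cyclase activator guca1a averaged 10.2 ± 4.05 at 0 h, 76.3 ± 50.9 at 5 dpl, 141 ± 59.5 at 10 dpl and 22.3 ± 10.3 at 14 dpl, with a log2 difference of 10 over 14 dpl of 2.696 (standard error 0.48, adjusted p = 0.00284). For sox11b the averages were 45.5 ± 10.7 at 0 h, 1492 ± 339.8 at 5 dpl, 775 ± 158 at 10 dpl and 351 ± 75.6 at 14 dpl, with a difference of 1.15 (standard error 0.27, adjusted p = 0.0373). The microglial receptor csf1ra, which had not passed the test against 0 h, had 2.04 (standard error 0.47, adjusted p = 0.0327). Its values were low at 0 h, with 5.902 in the highest retina and 3.173 in the next. The 2 genes lower at 10 than at 14 dpl were nme2b.2, a nucleoside diphosphate kinase gene, at -2.14 (standard error 0.45, adjusted p = 0.0216), and tp53inp2, at -1.52 (standard error 0.34, adjusted p = 0.027). Of the 28 genes, 26 also differed at least 2-fold, 24 higher and 2 lower at 10 dpl, and this count depended on single retinas, with 4 without 10 dpl replicate 5, 46 without 10 dpl replicate 1 and 8 in a fit of the 12 libraries alone.

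**Figure D5:**
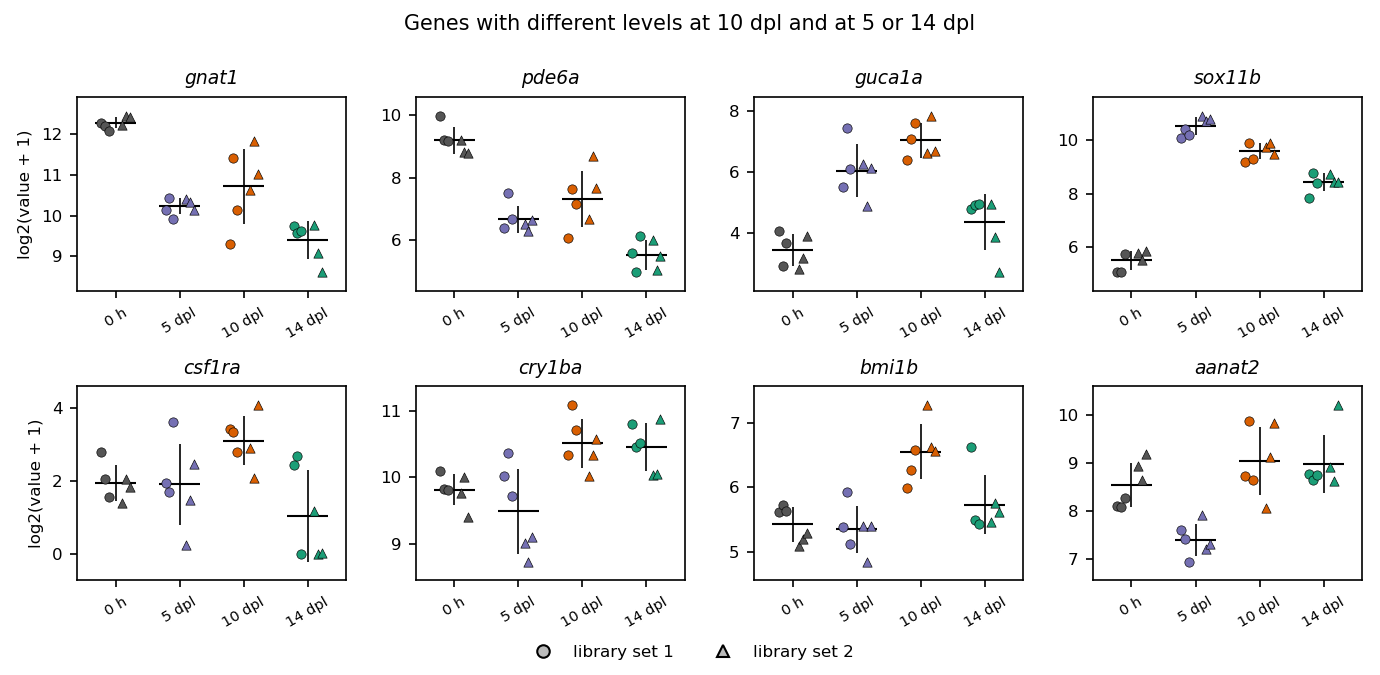
Level of 8 genes on the scale of log2(value + 1) (vertical axis) at 0 h, 5 dpl, 10 dpl and 14 dpl (6 retinas each), with circles for library set 1, triangles for library set 2, lines at the mean and bars of ± 1 SD. The rod genes gnat1 and pde6a spread widely at 10 dpl and are lower at 14 dpl, guca1a is highest at 10 dpl, and cry1ba, bmi1b and aanat2 are higher at 10 than at 5 dpl.

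The change at 10 dpl differed between the library sets in 4 of 11395 genes (0.0351%, limma with an interaction between set and time-point), namely abhd18, gadd45ga, lrrc30a and si:ch211-191i18.2. In all 4 the change had opposite signs in the sets. Over both sets together 3 of them did not pass the test, and si:ch211-191i18.2 was lower at 10 dpl.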

How the data were processed

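Single-retina QuantSeq libraries of albino zebrafish were analysed, 6 at each time-point, 48 in all. The authors used STAR for alignment to the zebrafish genome (build dR10 in their own spelling), HTSeq for gene counts and edgeR for normalization. Their versions, the strand setting and what was done with reads that map to several places are not given in the sources used here. What the authors deposited for each library are pseudocounts from edgeR, a normalized linear signal, and are no counts, so that neither depth nor counting error can be read from them. Deposited means and the authors' own comparisons (log2 fold changes, p-values and related columns) were not used.

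Of 15245 listed genes, 12 with symbols turned into dates (0.128% of the signal) were left out, and 11395 that reached a value of 5 in at least 6 of the 48 libraries were tested, a filter that a gene may pass through 1 time-point alone. R 4.3.3 with limma 3.58.1 (moderated by eBayes, trend on) was run on log2(value + 1) over all 48 libraries, with terms for library set and time-point (39 residual degrees of freedom, two-sided, Benjamini-Hochberg over all tested genes), with a separate model for the interaction of the terms. Retinas are the replicates. Groups came from the sample labels. Members of 40 gene lists were matched by symbol or a unique older symbol in RefSeq. Named genes are the 12 largest rises and falls past the test, of the same sign in both sets, with a mean of at least 20 in the higher group and no clone name, up to 4 members per list with the largest changes, and PR, glial and microglial genes of the paper. Other genes were chosen after their values were seen, and not every gene of the rule is given. The lists, the genes and the comparison itself were chosen with earlier results of these data known. Lists are described by counts and medians, with no set test. The alternatives changed the added constant, the low-value filter, the scaling, the terms, the moderation, the threshold or the libraries (1 set alone, a replicate block, or 1 library left out). The fit was tested on simulated data. Some genes are not reported here. Contrasts of the other time-points, the acute light experiment and morphology were not analysed here.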

Additional observations from a re-analysis of the deposited data

Results flagged for a closer look

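Single retinas that lay apart from the other 5 of their group, by a gap to the nearest retina too large for the group's range (Dixon's test, 95%), occurred in 26 of 268 gene and group pairs (9.7%), 8 at 10 dpl and 18 at 0 h. Chance gives about 1 in 20 for normally distributed values. The gaps were taken on linear values, whose distribution was not checked, so the share does not show an excess of such retinas. At 10 dpl replicate 4 was the high retina for lgals3bpb (310.9, next 149.9), stat1a (541.3, next 371.5) and stat2 (563.3, next 238.6). Replicate 3 was high for cxcl12b (192.9, next 134.7) and glula (2251, next 1841) and low for txn (30.5, next 98.23). Replicate 2 was high for gc3 (603.9, next 316.3), and replicate 5 was low for mcm7 (67.6, next 101.8).

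At 0 h library A of set 1 was apart in 10 genes. It was high for pde6a (1012, next 594.8), saga (960.9, next 444.8), rcvrn3 (713.8, next 498.6), apoeb (2112, next 1368), lgals9l1 (24.55, next 13.8), csf1ra (5.902, next 3.173), psmb9a (0.9865, next 0.01843), lepa (35.4, next 11.62) and jak1 (307.9, next 247.2), and low for hmgcs1 (41.15, next 82.41). Replicate 3 at 0 h was high for opn1mw3 (3586, next 1982), nr1d1 (32.2, next 13.75) and fam213b (1.967, next 0.036). Replicate 5 was high for opn1lw2 (4530, next 1859), psmb8a (7.992, next 1.942) and lepr (41.5, next 15.04). Replicate 6 was low for mcm7 (25.59, next 50), and library A of set 2 was high for hmox1a (17.1, next 6.304).

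The log2 change at 10 dpl, set 2 minus set 1, was 5.735 for abhd18, -3.145 for gadd45ga, 6.295 for lrrc30a and -4.435 for si:ch211-191i18.2, each past the interaction test of limma over all genes (adjusted p from 0.0167 to 0.0378).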

How the results depend on the processing

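The counts of 434 rises, 87 falls and 243 list members at 10 dpl became 205, 50 and 95 within library set 2 alone. At any fold they were 730 and 172, and 283 genes rose at an adjusted p under 0.01 with a fold of at least 2. Leaving out each retina in turn gave 357 to 446 rises, 76 to 88 falls and 200 to 235 list members. The 3 genes at 10 against 5 dpl with a fold of at least 2 became 6 in a fit of those 12 libraries alone and ranged from 1 to 4 with a retina left out, 1 being without 5 dpl replicate 5. The 26 genes at 10 against 14 dpl with a fold of at least 2 (24 higher, 2 lower) became 8 in the 12 libraries alone and ranged from 4 to 46. With the replicate block in place of library set and without the 2 unnumbered 0 h libraries, 369 genes rose, 64 fell and 177 list members were called. Same-numbered retinas of replicates 2, 3, 5 and 6 did not deviate together (correlations -0.024, -0.080, -0.084 and 0.040). Pairs with the 2 unnumbered 0 h libraries could not be formed. These values show no pairing by number but are too few to exclude it.

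The genes past the interaction test had opposite signs in the library sets, and 1 of them also passed the test over both sets. The other named genes that changed sign were all ones that had not passed the test. Within set 1 alone opn1mw1 was 0.69, fosab 0.21, elavl3 -0.36, elavl4 0.081, jak2a 0.025 and tp53inp2 -0.073. Within set 2 alone opn1lw2 was -1.34 and gfap 0.27. The replicate block gave 0.53 for opn1mw1. With each retina left out in turn, opn1mw1 ranged from -0.69 to 0.22 (0.00443 without library A of set 2 at 0 h), opn1lw2 from -0.08 to 1.04, jak2a from -0.141 to 0.113 and elavl4 from -0.092 to 0.00116. Of 113 named genes past the test, 50 lost it within library set 2 alone, 28 within set 1 alone, 18 under the replicate block, 8 under median-of-ratios rescaling and 17 with a retina left out. The last were lost to 9 different single omissions for psmb9a (adjusted p up to 0.0974), 7 each for aanat1 (0.087), dct (0.23) and hmgb1a (0.131), 6 each for cxcr4b (0.077), fabp7a (0.091) and stat2 (0.126), 4 each for gc3 (0.092), hmgcs1 (0.063), pmela (0.133) and rx2 (0.0767), and 3 each for cyp51 (0.0958), hsp70l (0.103) and stat1a (0.0636). Leaving out 10 dpl replicate 1 took rom1a to 0.0767, and leaving out 10 dpl replicate 3 took rx3 to 0.0532 and hmox1a to 0.0515. Depth per library is unknown, which limits what low values such as those of psmb9a, isg15 and crtac1a can show.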
